A study of Mus musculus with 7 samples.

Results

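Genes of matrix breakdown and its control were followed in heart leukocytes: the secreted or membrane-bound matrix metalloproteinases Mmp12, Mmp13, Mmp14 and Mmp19, their tissue inhibitors Timp1, Timp2 and Timp3, and the cell-surface metalloproteinase Adam8. They were chosen by gene symbol, and 8 of 8 were rows of all 7 deposited matrices, among 27514 genes that the matrices share. The series profiled leukocytes of C57BL6/J mice (male in the experiments compared here) by droplet single-cell RNA sequencing, at steady state or after myocardial infarction by ligation of the left coronary artery. Tissue was the infarct, its border zone and adjacent viable left ventricle, or a similar part of an uninfarcted heart. CD45+ leukocytes outside the vessels (not stained by an anti-CD45.2 antibody injected before death), sorted with a step that reduced neutrophils, gave 1 library each at steady state (5 mice), day 1 (5 mice), day 3 (5 mice), day 5 (5 mice) and day 7 (3 mice). A second experiment pooled extravascular CD11b+ cells of day 1 (5 mice), day 3 (5 mice) and day 5 (3 mice), told apart by hashtag antibodies and stained with sequenced antibodies to surface proteins. The time point label gives steady state for a library whose condition label, like that of every sample, is infarction, and it was taken as uninfarcted from its protocol. Another pool held blood and heart cells of mice without surgery, after sham surgery and after infarction. Its 7 hashtags could not be tied to those groups, so it enters no comparison.

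Matrix metalloproteinases are zinc enzymes that cut collagens, elastin and other matrix proteins, and also cytokines and their receptors. Most are made as inactive proenzymes, and Timps bind the active site of the mature enzymes. In the infarcted heart these enzymes clear and rebuild matrix during scar formation, and infiltrating leukocytes, fibroblasts and endothelial cells are known sources of both enzymes and inhibitors.

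On GRCm38 in the GENCODE M21 annotation all 8 were protein-coding genes. Mmp13 lies at chr9:7272514-7283331 (plus strand) and Mmp12 close beside it at chr9:7344381-7369499 (plus strand). The others were Mmp14 (chr14:54431612-54445364, plus strand), Mmp19 (chr10:128790910-128800824, plus strand), Timp1 (chrX:20870166-20874735, plus strand), Timp2 (chr11:118301069-118355740, minus strand), Timp3 (chr10:86300372-86349506, plus strand) and Adam8 (chr7:139978932-139992562, minus strand). Timp1 overlaps Syn1, Timp3 overlaps Syn3, Mmp12 overlaps Mmp1b and Mmp19 overlaps Tmem198b, all on the opposite strand, and Timp2 overlaps Cep295nl on the same strand. Over the 14 class sums described next, the overlapping gene held 516 unique molecular identifiers (UMIs) for Syn1 against 7669 for Timp1, 793 for Tmem198b against 14651 for Mmp19, 127 for Cep295nl against 44294 for Timp2, 3 for Syn3 against 81 for Timp3 and 0 for Mmp1b against 17424 for Mmp12. Whether counting used strand is not given in the sources used here.

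Cells were assigned to classes by clustering without the 8 genes or the related pathway genes, and the counts of each class were summed by day and experiment. Monocytes and macrophages gave 8 sums: steady state and days 1, 3, 5 and 7 of the CD45+ libraries (530, 247, 641, 763 and 583 cells) and days 1, 3 and 5 of the CD11b+ pool (241, 1153 and 1385 cells). Neutrophils gave 6 sums, at days 1, 3 and 5 (216, 135 and 41 cells, then 257, 1000 and 220 cells). The 4745 CD45+ cells used held 36980541 UMIs. Of 18983 barcodes, 24 occurred in more than 1 library. Values are CPM, a gene's UMIs relative to all UMIs of the same sum and so a level relative to other transcripts, with exact Poisson intervals (95%) that cover counting error only. Each library pools mice, so the spread between mice was not measured. Between days, a p-value reflects how far the differences vary between the 2 experiments, which also differ in sort and kit version. In splits of the pool by surface antibody, it reflects how far the split varies between days of 1 library. The CD45+ day 1 sum stands apart: 14 neutrophil markers summed to 19001 CPM in its monocytes and macrophages, against 171 to 1778 CPM in the other CD45+ sums and 638 to 2299 CPM in the pool. Of its 247 cells, 236 came from a cluster led by Saa3, Cxcl3 and Arg1, so the differences between days in monocytes and macrophages are also given without it. The ratios of day 1 to steady state rest on it alone, since the pool holds no steady state. Leaving out a class sum leaves 1 sum for its day, so p-values of such a fit hold no spread between sums of that day.

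In monocytes and macrophages the 8 genes followed different courses after infarction. Between day 1 and day 5, Timp2 rose while Mmp19, Timp1 and Mmp13 fell, 4 of the 7 members that could be tested (1 higher, 3 lower), where 11% of 10685 genes passed, 4.72% higher and 6.24% lower. The median log2 difference was -0.82 over the 7 members and -0.02 over all genes. Between day 1 and day 3, 0 of 7 passed edgeR's quasi-likelihood test, where 0.0374% of genes did. In that comparison 5 members had an unadjusted p under 0.05, and DESeq2 called 5. Between day 3 and day 5, 0 of 7 passed, where 0.0187% of genes did, where DESeq2 called 2 members and 2 had an unadjusted p under 0.05. The day 3 and day 5 comparisons share their day 1 sums. Leaving out the CD45+ day 1 sum left 1 sum for day 1. The day 5 difference was then 3.59 for Timp2, -2.01 for Mmp13 and -1.76 for Timp1. Mmp19 lay between -2.45 and -2.11 in all fits that left out a sum. With all sums Timp3 did not pass the filter on low counts. Its 16 UMIs on day 1 of the pool came from 1 cell.

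**Figure D1:**
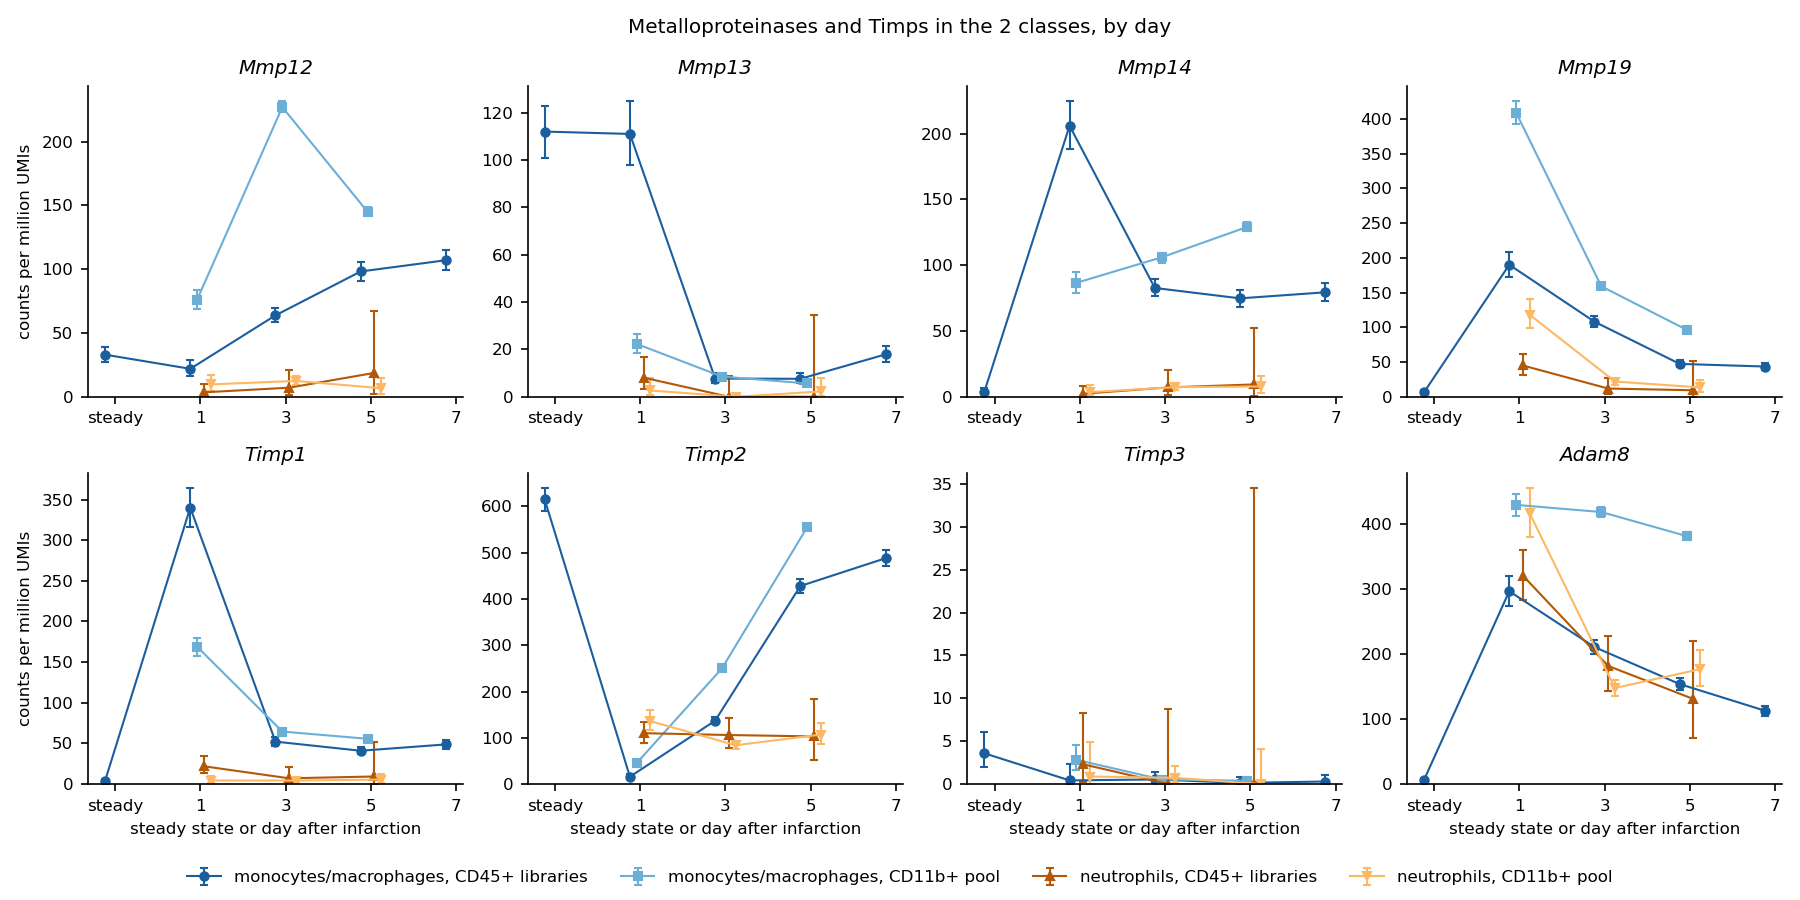
Level of each of the 8 genes (CPM, linear axis from 0) at steady state and days 1, 3, 5 and 7 after infarction in monocytes and macrophages and in neutrophils, with 1 point per sum and bars for the 95% Poisson interval. Timp2 sits at 15.9 and 45.6 CPM on day 1 and at 428 and 555 CPM on day 5 in monocytes and macrophages, while in neutrophils it lies between 83.9 and 136 CPM.

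Mmp14 encodes a membrane-bound collagenase that also activates pro-Mmp2. In monocytes and macrophages of the CD45+ libraries it stood at 3.84 CPM (2.15 to 6.34) at steady state, then at 206, 82.7, 74.8 and 79.4 CPM on days 1, 3, 5 and 7. The pool gave 86.6, 106 and 129 CPM on days 1, 3 and 5. Every sum after infarction lay above the steady-state value, and day 1 was 53.6 times it (32.2 to 96.5), a comparison of 2 libraries with no test. The experiments differed in direction after day 1: the log2 difference from day 1 to day 5 was -1.79 in the CD45+ libraries and 0.38 in the pool. The joint fit gave -0.76 (SE 0.51, edgeR adjusted p = 0.341), and 0.35 without the CD45+ day 1 sum (edgeR adjusted p = 0.223).

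Mmp19, a metalloproteinase that cuts basement membrane components, was at 6.40 CPM (4.14 to 9.45) at steady state and at 190, 108, 47.3 and 43.5 CPM on days 1, 3, 5 and 7 of the CD45+ libraries. In the pool it was at 409, 159 and 96.5 CPM on days 1, 3 and 5. Within each experiment every day was lower than the one before it from day 1 to day 5, and the day 1 and day 5 sums did not overlap. The fall from day 1 to day 5 was -2.30 on the log2 scale (SE 0.20, edgeR adjusted p = 0.00650), at -2.34 in the CD45+ libraries and -2.28 in the pool, and -2.32 without the CD45+ day 1 sum (edgeR adjusted p = 1.30e-04). By day 3 the difference was -1.32 (SE 0.20, edgeR adjusted p = 0.0580), and without the CD45+ day 1 sum -1.37. On day 1 the level was 29.7 times that at steady state (19.9 to 46.4), and on day 7 it was 6.80 times it (4.51 to 10.7).

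Mmp12, the macrophage elastase, was at 33.0 CPM (27.6 to 39.3) at steady state and at 21.9, 63.8, 98.2 and 107 CPM on days 1, 3, 5 and 7 of the CD45+ libraries. The pool gave 76.0, 227 and 145 CPM on days 1, 3 and 5. In both experiments day 1 was the lowest of these 3 days, but the pool's day 1 value lay above day 3 of the CD45+ libraries. The difference between day 1 and day 5 was 1.29 (SE 0.33, edgeR adjusted p = 0.0607), and it was 1.12 once the CD45+ day 1 sum was left out. A few cells held much of this message: the 2 cells richest in Mmp12 carried 62.7% of its UMIs on CD45+ day 1, 25.9% on CD45+ day 5 and 8.48% on day 5 of the pool. In the pool on day 3, 1 cell held 966 of 8530 UMIs, and 363 of 1153 cells held any.

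Mmp13, an interstitial collagenase, was at 112 CPM (101 to 123) at steady state and at 111, 7.69, 7.58 and 17.9 CPM on days 1, 3, 5 and 7 of the CD45+ libraries. The pool held 22.3, 8.53 and 5.63 CPM on days 1, 3 and 5. Both day 1 sums were above all sums of days 3 and 5. From day 1 to day 5 it fell by 3.30 on the log2 scale (SE 0.61, edgeR adjusted p = 0.0293), at -4.19 in the CD45+ libraries and -2.18 in the pool. The similar levels at steady state and on day 1 of the CD45+ libraries had different makeups. At steady state 136 of 530 cells held the transcript and the top 2 held 15.4% of it, whereas on day 1 a single cell held 201 of 259 UMIs and another 32. Without those 2 cells the day 5 against day 1 difference was -1.67 (edgeR adjusted p = 0.0372). Without the CD45+ day 1 sum it was -2.01, and without the CD45+ day 5 sum the call was lost, at -2.87. The first of these fits rests on day 1 of the pool, where the transcript was also held by few cells. There 14 of 241 cells held the 126 UMIs, and the top 2 held 41.3% of them. Day 7 remained 6.25-fold lower than steady state (5.09 to 7.72), with no test.

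The upstream sequences of the neighbours Mmp12 and Mmp13 are shown because these neighbours had fitted differences of opposite sign between day 1 and day 5 and because both windows held the same motif. Each line gives the 60 bases just before a start of the gene in RefSeq on GRCm38.p6, plus strand, chr9:7272454-7272513 for Mmp13 and chr9:7347314-7347373 for the second of 2 starts of Mmp12, with the motif TGANTCA (N is any base) in capitals.
Mmp13: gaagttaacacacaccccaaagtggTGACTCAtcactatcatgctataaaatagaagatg
Mmp12: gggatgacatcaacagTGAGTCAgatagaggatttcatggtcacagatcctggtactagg
The motif is of the type bound by AP-1 factors and reads the same on both strands. It occurred in 6.75% of 32851 RefSeq windows of 250 upstream bases. The other 6 member windows searched, among them the first start of Mmp12, did not hold these letters. No window was matched for Mmp19.

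Timp2, an inhibitor that also takes part with Mmp14 in activating pro-Mmp2, was low on day 1 and high both before and after it. In the CD45+ monocytes and macrophages it was at 615 CPM (590 to 640) at steady state, 15.9 CPM (11.2 to 21.9) on day 1, then 137, 428 and 488 CPM on days 3, 5 and 7. The pool gave 45.6, 250 and 555 CPM on days 1, 3 and 5. Sums of the 3 days did not overlap, and each day was above the one before it in both experiments. Day 1 was 38.7-fold lower than steady state (28.0 to 55.2), a comparison of 2 libraries with no test. Timp2 rose by 3.86 on the log2 scale from day 1 to day 5 (SE 0.28, edgeR adjusted p = 0.00522), by 4.41 within the CD45+ libraries and 3.40 within the pool. The day 3 difference was 2.48 (SE 0.27, edgeR adjusted p = 0.0508), just short of the threshold of 0.05, and 2.22 without the CD45+ day 1 sum. On day 7 the level was still 0.793 times that of steady state (0.752 to 0.836). Neutrophil markers moved in the opposite direction in these sums, from 19001 to 443 CPM between CD45+ day 1 and day 5, and their part in the result was not tested. Without the CD45+ day 1 sum, the Timp2 difference was 3.59 (edgeR adjusted p = 4.98e-05).

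Timp1, the inducible inhibitor and a growth factor for several cell types, was at 3.84 CPM (2.15 to 6.34) at steady state and at 340, 52.2, 41.0 and 48.8 CPM on days 1, 3, 5 and 7 of the CD45+ libraries. The pool gave 169, 64.6 and 55.7 CPM on days 1, 3 and 5. Day 1 was the highest day in both experiments, with no overlap with days 3 and 5. The fall from day 1 to day 5 was -2.63 (SE 0.41, edgeR adjusted p = 0.0202), at -3.38 in the CD45+ libraries and -1.80 in the pool. The call was lost without the CD45+ day 5 sum, at -2.13 (edgeR adjusted p = 0.0804), and kept without CD45+ day 1, at -1.76 (edgeR adjusted p = 1.51e-04). Day 1 stood at 88.4 times the steady-state level (53.3 to 159), and day 7 at 12.7 times it (7.58 to 22.9). Day 1 was thus the highest of days 1, 3 and 5 for Timp1 and the lowest for Timp2 in both experiments.

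Timp3, the inhibitor that binds to the matrix, was close to undetected in monocytes and macrophages. It held 14 UMIs (3.59 CPM) at steady state and 1, 4, 1 and 2 UMIs on days 1, 3, 5 and 7 of the CD45+ libraries. The pool held 16, 20 and 17 UMIs on days 1, 3 and 5, and the 16 of day 1 came from 1 cell. Among the few fibroblasts in the sorted cells, 25 cells held 620 CPM (511 to 744) at steady state. Their later levels were 60.6 CPM in 11 cells of day 3, 4.82 CPM (2 UMIs) in 19 cells of day 5 and 148 CPM in 6 cells of day 7. The day 1 library had 2 such cells, with 9 UMIs. Adam8 in the fibroblasts was at 0 CPM at steady state and at 48.5, 91.5 and 13.5 CPM on days 3, 5 and 7. The part of barcodes that mix fibroblasts with other cells was not tested. Fibroblast markers summed to 3.71 to 38.4 CPM in the monocyte and macrophage sums, highest at steady state, where Pdgfra and Postn were at 0. Their part in the steady-state Timp3 counts was not tested.

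Adam8, a membrane proteinase that sheds adhesion molecules and is not a matrix metalloproteinase, was at 6.40 CPM (4.14 to 9.45) at steady state and at 297, 211, 154 and 113 CPM on days 1, 3, 5 and 7 of the CD45+ libraries. The pool gave 430, 419 and 382 CPM on days 1, 3 and 5. All post-infarction sums were above the steady-state value, and within each experiment day 1 was the highest day. The day 5 against day 1 difference was -0.82 (SE 0.24, edgeR adjusted p = 0.0801), at -1.28 in the CD45+ libraries and -0.37 in the pool, and it did not pass. It was -0.38 without the CD45+ day 1 sum and -1.16 without the pool day 1 sum. Day 1 was 46.3 times steady state (31.1 to 72.1) and day 7 was 17.6 times it (11.8 to 27.4), with no test.

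The share of cells holding a transcript was compared after thinning each cell to 2000 UMIs. In CD45+ monocytes and macrophages Timp2 was found in 62.3% of cells at steady state and in 2.92%, 17.3%, 41.2% and 50.6% on days 1, 3, 5 and 7 (unthinned 90.4%, 10.1%, 45.1%, 71.0% and 85.1%). The B cells of the day 7 library, a type without a known role for these genes, gave 7.48% (median 2741.5 UMIs a cell, against medians of 7212.5 to 10655 in monocytes and macrophages). The day 1 share lay below that, but the B cell share is not a background of the day 1 library, whose 13 B cells held 0 Timp2 UMIs. Adam8 went the other way between steady state and day 1, from 0.998% to 34.2% of cells, then 32.9%, 23.6% and 16.3% (unthinned 3.40%, 74.5%, 73.0%, 52.4% and 47.7%), with 2.60% in B cells. Mmp19 was found in 0.798%, 26.7%, 13.9%, 8.65% and 9.09% of cells (unthinned 3.21%, 47.0%, 38.1%, 24.4% and 23.8%). The pool gave the same order of days for Timp2 (7.50%, 27.1% and 50.9%) and Mmp19 (37.9%, 21.0% and 13.9%). Mmp12 was found in 1.67% to 7.08% of cells in the CD45+ libraries (unthinned 4.05% to 15.6%) and in 6.67%, 11.1% and 8.95% in the pool (unthinned 16.2%, 31.5% and 26.2%), against 1.46% of B cells.

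**Figure D2:**
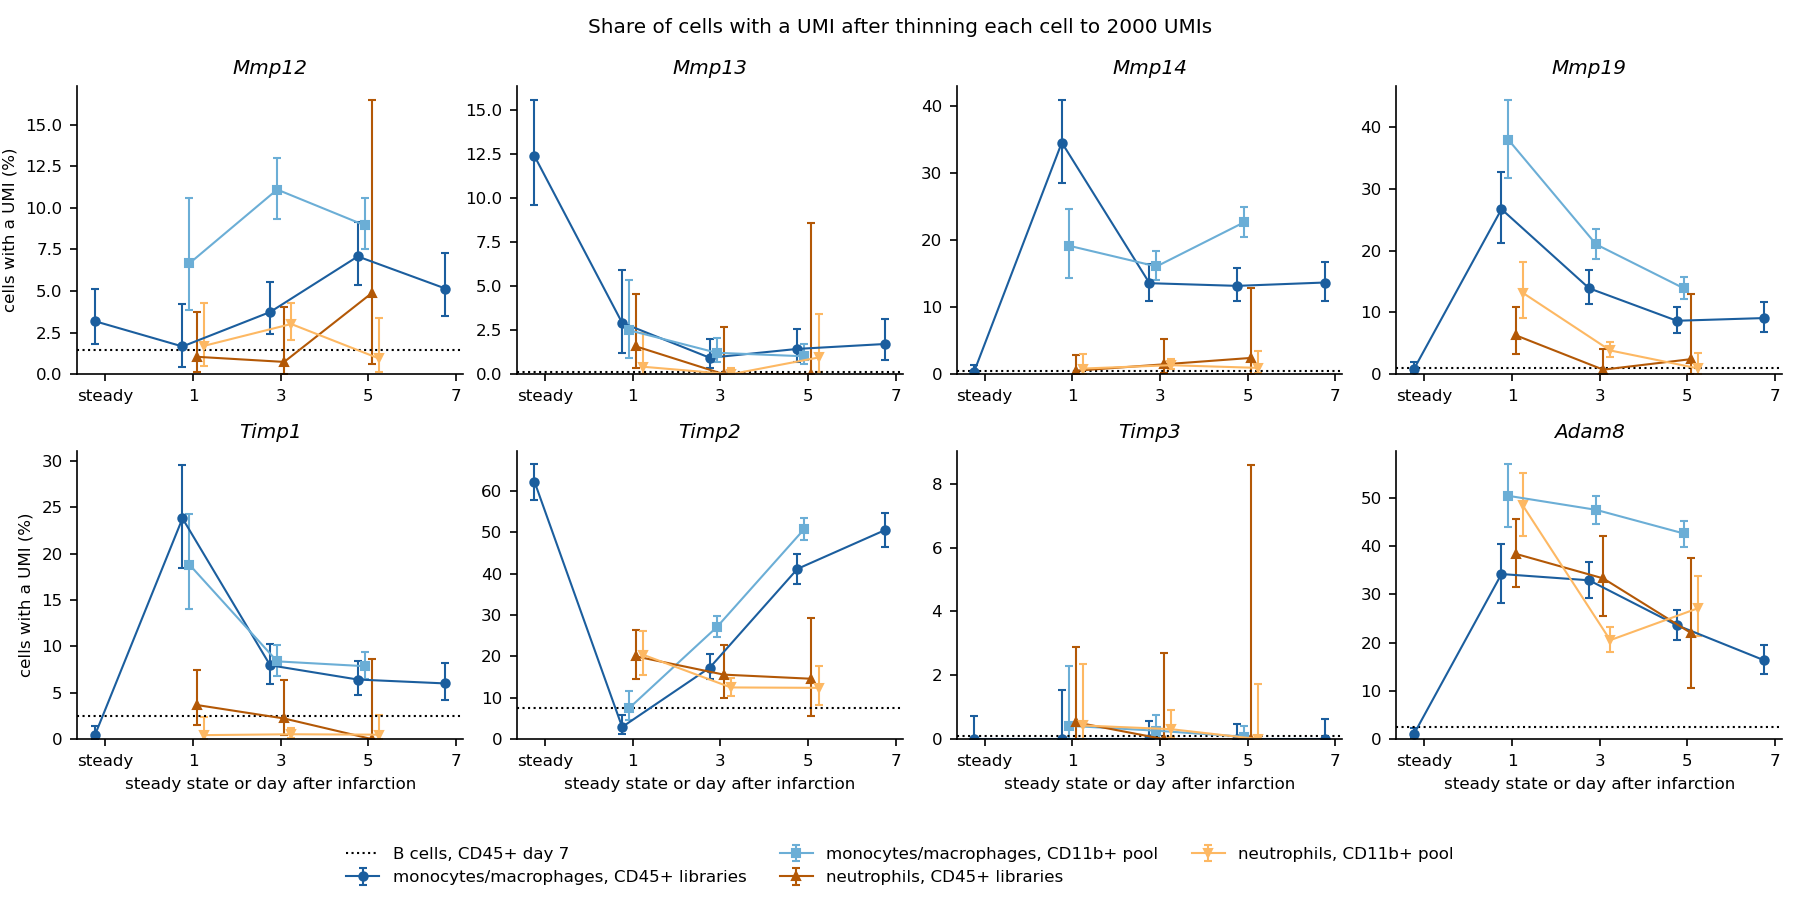
Share of cells (percent) with at least 1 UMI of the gene after each cell was thinned to 2000 UMIs, by day, with exact binomial 95% intervals, and the day 7 B cells as a dotted line. In CD45+ monocytes and macrophages, Timp2 runs from 62.3% at steady state through 2.92% on day 1 to 50.6% on day 7.

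Neutrophils held a narrower set of these genes. The 6 monocyte and macrophage sums of days 1 to 5 did not overlap the 6 neutrophil sums for 3 of the 8 members, all higher in monocytes and macrophages, where 9.28% of 18191 genes were higher there without overlap and 11.7% did not overlap in either direction. These were Mmp12 (21.9 to 227 CPM against 3.46 to 18.7), Mmp14 (74.8 to 206 against 2.31 to 9.35) and Timp1 (41.0 to 340 against 4.38 to 21.9). For Mmp13, Mmp19, Timp2, Timp3 and Adam8 the ranges overlapped. Adam8 spanned 131 to 417 CPM in neutrophils and 154 to 430 CPM in monocytes and macrophages. Monocyte and macrophage markers summed to 2149 to 6799 CPM in the neutrophil sums, with 19 or 20 of 20 above 0, and their part in the neutrophil values was not tested.

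Surface protein offered a split of the pool that did not use transcripts. Ly6G, the neutrophil antigen, was used as a gate, and 30.6% of 10105 genes differed between positive and negative cells. Of 7 members tested, 3 differed, all lower in Ly6G-positive cells, where 13.9% of genes were lower. Mmp12 was at 73.2, 236 and 148 CPM in negative cells on days 1, 3 and 5 and at 33.3, 23.7 and 45.7 CPM in positive cells, a log2 difference of -1.89 (SE 0.40, edgeR adjusted p = 0.00710). Mmp14 was at 87.9, 105 and 129 CPM against 14.9, 42.7 and 95.0 CPM (-1.07, SE 0.24, edgeR adjusted p = 0.0103). The 2 gates did not overlap for Mmp12 and overlapped for Mmp14, whose positive cells on day 5 exceeded the negative cells of day 1. The positive gate was not neutrophils alone: on day 5 its cells held 314 CPM of Timp2 and 95.0 CPM of Mmp14, where neutrophils classed by transcripts held 107 and 7.80 CPM. The part of other cells in these differences was not tested. Timp1 was at 174, 62.3 and 56.3 CPM against 18.4, 37.0 and 28.9 CPM (-1.27, SE 0.31, edgeR adjusted p = 0.0140).

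Within neutrophils Mmp19 and Adam8 fell after day 1. Mmp19 was at 45.0, 11.8 and 9.35 CPM on days 1, 3 and 5 of the CD45+ libraries and at 118, 21.9 and 13.4 CPM in the pool. Adam8 was at 321, 182 and 131 CPM and at 417, 148 and 177 CPM. The levels of day 1 were above those of days 3 and 5 for both genes. For Mmp19, though, CD45+ days 3 and 5 held 5 UMIs and 1 UMI. The Poisson interval of CD45+ day 5 (0.237 to 52.1 CPM) overlapped that of CD45+ day 1 (32.0 to 61.5 CPM). Of 4 members that could be tested, these 2 were lower on day 3, where 3.26% of 6173 genes passed, 2.48% lower. Mmp19 fell by 2.88 on the log2 scale (SE 0.48, edgeR adjusted p = 0.00111) and Adam8 by 1.81 (SE 0.39, edgeR adjusted p = 0.0106). By day 5 the same 2 members were lower, where 8.54% of genes passed, 2.46% higher and 6.07% lower. Mmp19 fell by 3.77 (SE 0.58, edgeR adjusted p = 5.15e-04) and Adam8 by 2.15 (SE 0.41, edgeR adjusted p = 0.00247). Timp2 was at 110, 106 and 103 CPM and at 136, 83.9 and 107 CPM, and its day 5 difference of -1.14 did not pass (SE 0.41, edgeR adjusted p = 0.0865). Between days 3 and 5, 0 members passed edgeR's test, 0 had an unadjusted p under 0.05 and DESeq2 called 0, where 0% of genes were called.

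These neutrophil calls depend on which cells are counted as neutrophils. On day 1, 214 of 216 CD45+ and 218 of 257 pool neutrophils came from clusters with Retnlg among their leading genes, while 805 of 1000 pool neutrophils on day 3 and 146 of 220 on day 5 came from a cluster led by Tnf and Icam1. The CD45+ neutrophils also changed cluster, and on day 3, 133 of 135, and on day 5, 41 of 41 came from a cluster led by G0s2 and Il1r2. Without the pool's Tnf and Icam1 cluster Mmp19 still passed (-3.25, edgeR adjusted p = 0.0437 on day 3, and -5.43, adjusted p = 0.0496 on day 5), and Adam8 did not (-1.11, adjusted p = 0.302, and -1.34, adjusted p = 0.212). With pool cells classed by the Ly6G antibody instead, Mmp19 passed on neither day (edgeR adjusted p = 0.0665 and 0.107). Scaling by total counts moved the median of all genes by 0.64 and 0.89 in these 2 comparisons and raised the share of calls that were higher from 23.9% to 88.5% on day 3 and from 28.8% to 92.7% on day 5. Under it Mmp19 still fell, by 2.24 (edgeR adjusted p = 0.0222) and 2.93 (edgeR adjusted p = 0.00621), and Adam8 fell on day 5 by 1.22 (edgeR adjusted p = 0.0399) but was not called on day 3, at -1.15 (edgeR adjusted p = 0.0671).

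Timp2 was the only member called for a course that differed between the classes. Its change from day 1 was larger in monocytes and macrophages than in neutrophils by 3.46 on the log2 scale on day 3 (SE 0.44, edgeR adjusted p = 0.0145) and by 5.13 on day 5 (SE 0.46, edgeR adjusted p = 5.95e-04). It was 1 of 7 members tested in each, where 0.0196% and 0.943% of 10180 genes passed. An unadjusted edgeR p under 0.05 was found for 3 members on day 3 and 4 on day 5, Timp2 among them, and for 1180 and 1678 of all genes. On day 1 the Timp2 level of the neutrophil sums (110 and 136 CPM) lay above that of monocytes and macrophages (15.9 and 45.6 CPM). On day 5 the order was reversed (103 and 107 against 428 and 555 CPM). Under total-count scaling the differences were 3.11 (edgeR adjusted p = 0.0534) and 4.35 (edgeR adjusted p = 0.00868). Without the CD45+ day 1 sum they were 3.28 and 4.85. Leaving out the CD45+ or the pool day 5 sum ended the day 5 call, at 4.62 (edgeR adjusted p = 0.135) and 5.80 (edgeR adjusted p = 0.0610). The day 3 call was lost without CD45+ day 5 (edgeR adjusted p = 0.0813), pool day 3 (edgeR adjusted p = 0.282) or pool day 5.

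The antibody to Ly6C, a marker of recently recruited monocytes, was used to split the pool's monocytes and macrophages into tertiles within each day (81, 385 and 462 cells a tertile on days 1, 3 and 5). Timp2 was higher in Ly6C-low cells at every day, at 100, 348 and 717 CPM against 18.0, 66.3 and 271 CPM in Ly6C-high cells. Mmp19 went the opposite way, at 167, 146 and 91.3 CPM in low cells and 577, 228 and 134 CPM in high cells. Of 8 members tested edgeR called 3, 2 higher and 1 lower in Ly6C-high cells, where 9.82% of 10864 genes were called, 5.27% higher and 4.56% lower. Of the 2 higher, Timp3 passed the filter on low counts only through its counts in high cells, so its call is no support for a difference. The log2 difference was -1.92 for Timp2 (SE 0.20, edgeR adjusted p = 0.00430) and 1.10 for Mmp19 (SE 0.26, edgeR adjusted p = 0.0410). The Mmp19 call was lost under total-count scaling, at 0.98 (edgeR adjusted p = 0.0524), and without day 3 (adjusted p = 0.0693) or day 5 (adjusted p = 0.0956). Timp3 was at 3.84 (SE 0.86, edgeR adjusted p = 0.0350), on 0, 0 and 4 UMIs in low cells and 16, 14 and 13 in high cells. In all the pool's monocytes and macrophages, 1 cell held the 16 UMIs of day 1, 1 held 11 of 20 on day 3 and 1 held 13 of 17 on day 5, and without day 1 the value was 3.39 (adjusted p = 0.0568), so this rests on very few cells. With clusters cut more finely, 26 UMIs of days 3 and 5 lay in a cluster of 97 cells led by Fabp4, Gzma and Igkc, and the part of other cell types was not tested. Mmp12 differed in direction between days, at 54.2, 390 and 202 CPM in low cells and 84.4, 34.5 and 18.0 CPM in high cells, and did not pass (-2.28, SE 0.82, edgeR adjusted p = 0.120).

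Splitting the same cells by surface I-A/I-E, the class II antigen-presenting molecule, separated Mmp12. It was at 14.5, 70.7 and 70.5 CPM in low cells and at 123, 391 and 224 CPM in high cells on days 1, 3 and 5. On each day the high tertile was above the low, and all 3 high values exceeded all 3 low values. The log2 difference was 2.26 (SE 0.22, edgeR adjusted p = 0.0221), the only one of 8 members called, where 0.366% of 10942 genes were called and 0.0183% were lower. It was called in all 3 fits that left out a day, at 2.05 to 2.67. Timp2 was at 44.9, 136 and 418 CPM in low cells and at 55.2, 286 and 554 CPM in high cells, a difference of 0.62 that did not pass (SE 0.15, edgeR adjusted p = 0.266).

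**Figure D3:**
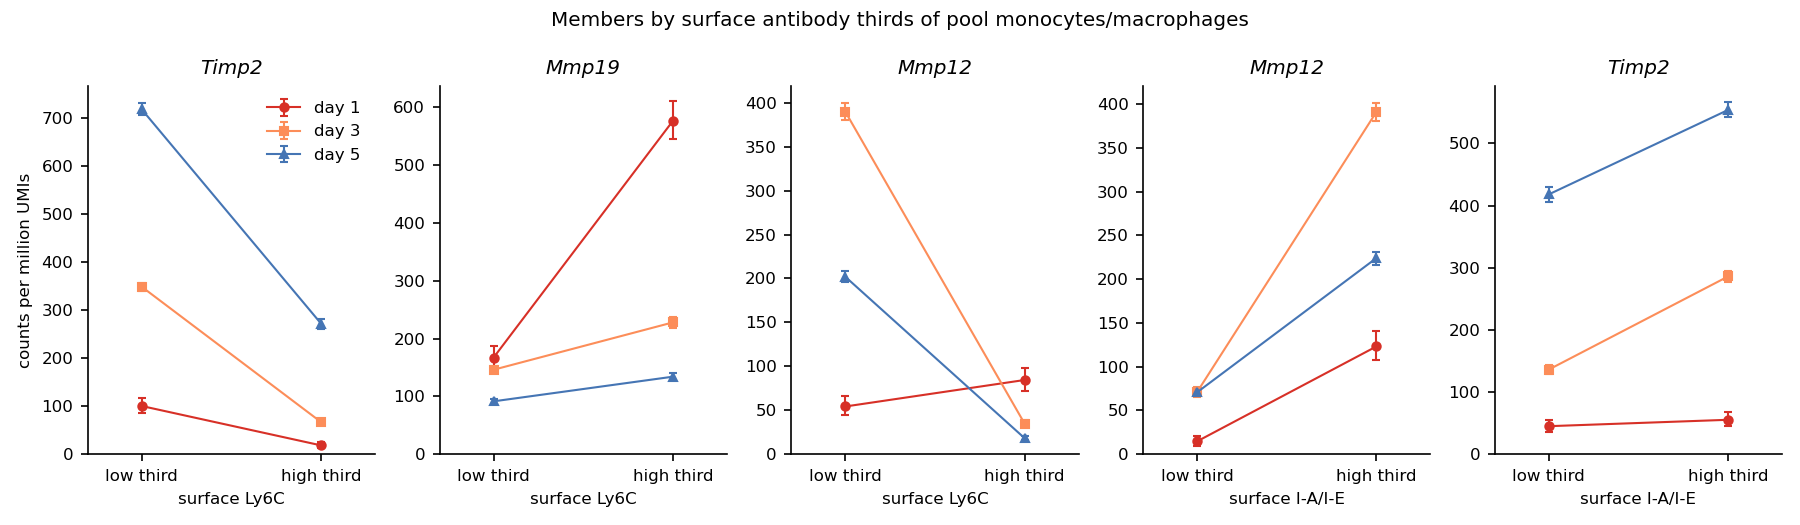
Level (CPM, linear axis from 0, bars for the 95% Poisson interval) of Timp2, Mmp19 and Mmp12 in monocytes and macrophages of the CD11b+ pool split into tertiles by surface Ly6C, and of Mmp12 and Timp2 by surface I-A/I-E, on days 1, 3 and 5. Timp2 is at 100, 348 and 717 CPM in Ly6C-low cells and at 18.0, 66.3 and 271 CPM in Ly6C-high cells, and Mmp12 is above its low-tertile value in I-A/I-E-high cells on each day.

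Macrophage states within the class were described with no test, since states were defined from the same cells. Each state is a cluster, or clusters that share a name, named from fixed markers (ending in -like), and where the markers did not support a name it is called by its leading genes. The CD45+ MHC II-high-like state joins 2 clusters, 134 cells led by Tpm1, H2-Eb1 and Cd81 and 486 cells led by Cd72, Bcl2a1b and Ccrl2. Its makeup moved with the day. Resident-like macrophages made up 78.7% of the class at steady state and 9.78% on day 7, while the cluster led by Cxcl3, Lcn2 and S100a8 made up 86.2% on CD45+ day 1. Ly6c2+ monocyte-like cells made up 52.0% on CD45+ day 3, and Trem2+ Gpnmb+ macrophage-like cells 49.1% on CD45+ day 5.

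Timp2 was at 634 CPM at steady state and 890 CPM on day 7 in Resident-like macrophages, the uppermost range of the CD45+ states. It was at 195, 581 and 658 CPM in Trem2+ Gpnmb+ macrophage-like cells on days 3, 5 and 7 and at 291 to 510 CPM in MHC II-high-like cells. Ly6c2+ monocyte-like cells held 39.7, 60.7 and 76.2 CPM, and the Cxcl3, Lcn2 and S100a8 cluster 4.21 CPM. In the pool the order was similar at its lower end, with 17.6, 61.2 and 104 CPM in Ly6c2+ monocyte-like cells on days 1, 3 and 5. The upper pool states overlapped, at 501 and 810 CPM in the cluster led by Selenop, Apoe and Gdf15, 438 and 677 CPM in Trem2+ Gpnmb+ macrophage-like cells and 363 and 521 CPM in the cluster led by Hbb-bs, Spp1 and Pf4 on days 3 and 5. Within a state the level also differed between days, as between days 3 and 7 of the Trem2+ Gpnmb+ macrophage-like cells.

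Mmp12 had another distribution. In the pool it was at 459 and 326 CPM in the Hbb-bs, Spp1 and Pf4 cluster on days 3 and 5 and at 309 and 153 CPM in MHC II-high-like cells. Trem2+ Gpnmb+ macrophage-like cells held 167 and 181 CPM in the pool, and 77.1, 126 and 240 CPM on days 3, 5 and 7 of the CD45+ libraries. Its order was neither that of Timp2 nor the reverse: Mmp12 was at 22.9 and 48.9 CPM in the Selenop, Apoe and Gdf15 cluster and at 27.8 and 10.2 CPM in Resident-like macrophages, where Timp2 was high, but high with Timp2 in the Hbb-bs, Spp1 and Pf4 cluster and the Trem2+ Gpnmb+ macrophage-like cells. Levels of Mmp12 moved when clusters were cut more finely, to 273 and 295 CPM in the sums of the pool's Trem2+ Gpnmb+ macrophage-like cells. In the CD45+ MHC II-high-like cells the range was 45.0 to 107 CPM (median 59.4 CPM) before. It was 50.0 to 169 CPM (median 140 CPM) after, and these ranges overlap.

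Mmp19 was at 600, 236 and 196 CPM in the pool's Ly6c2+ monocyte-like cells on days 1, 3 and 5 and at 33.8 to 44.9 CPM in its Trem2+ Gpnmb+ macrophage-like cells, and these ranges did not overlap. With clusters cut more finely the values were 147 to 268 CPM and 75.2 to 79.0 CPM. In the CD45+ libraries Resident-like macrophages held 6.58 and 8.16 CPM, against 206 CPM in the Cxcl3, Lcn2 and S100a8 cluster. Mmp14 showed little difference between states in the pool, at 60.6 to 139 CPM, while in the CD45+ libraries it ran from 2.04 to 2.39 CPM in Resident-like macrophages to 209 CPM in the Cxcl3, Lcn2 and S100a8 cluster. Mmp13 was found in the Resident-like state at 120 CPM at steady state and 93.9 CPM on day 7. The day 7 value came from 57 cells. MHC II-high-like cells held 14.2 to 58.1 CPM of Mmp13. With clusters cut more finely this contrast was lost, at 52.0 to 101 CPM in Resident-like macrophages and 23.1 to 181 CPM in MHC II-high-like cells. At the coarser setting the 1263 CPM of Mmp13 in the Interferon-high-like cluster came from 242 UMIs in 4 of 33 cells. Resident markers were also found in that cluster, Cd163 in 54.5% and Folr2 in 42.4% of its cells, and C1qa in 90.9%. Whether its cells are resident macrophages of day 1 was not tested.

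Of the inhibitors, Timp1 was at 368 CPM in the Cxcl3, Lcn2 and S100a8 cluster, at 2.09 to 4.08 CPM in Resident-like macrophages and at no more than 76.0 CPM in any other CD45+ state. In the pool Arg1-high-like cells held 201 to 240 CPM of Timp1 on days 1 and 3. The Selenop, Apoe and Gdf15 cluster held 23.2 to 34.0 CPM on days 3 and 5, with no overlap, but the days differ. Arg1-high-like cells of CD45+ day 3 (76 cells) held 37.3 CPM. Adam8 was at 4.48 to 14.3 CPM in Resident-like macrophages and at 180 to 282 CPM in Trem2+ Gpnmb+ macrophage-like cells of the CD45+ libraries. In the pool it ran from 178 to 222 CPM in MHC II-high-like cells to 617 to 621 CPM in the Hbb-bs, Spp1 and Pf4 cluster. For Mmp14, Timp1 and Adam8 the Resident-like range was the lowest of the 7 CD45+ states and overlapped none of the others. With clusters cut more finely, 98 steady-state cells led by Tpm1 and Cd81 lay lower for Timp1 and Adam8, at 0. Resident-like sums came from steady state and day 7 only, and most other states had sums only after infarction. On CD45+ day 1 the Interferon-high-like cluster of 33 cells held the Resident markers Cd163 (54.5% of cells) and Folr2 (42.4%). It was at 177 CPM for Mmp14, 36.5 CPM for Timp1, 78.3 CPM for Adam8 and 141 CPM for Timp2. MHC II-high-like cells, which also had a steady-state sum, ran from 16.9 to 88.1 CPM for Adam8. Their lowest sum for Mmp14 was 13.1 CPM. The part of the day in these low Resident-like levels was not tested. For Timp2 the Resident-like range lay at the top and overlapped that of Trem2+ Gpnmb+ macrophage-like cells.

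**Figure D4:**
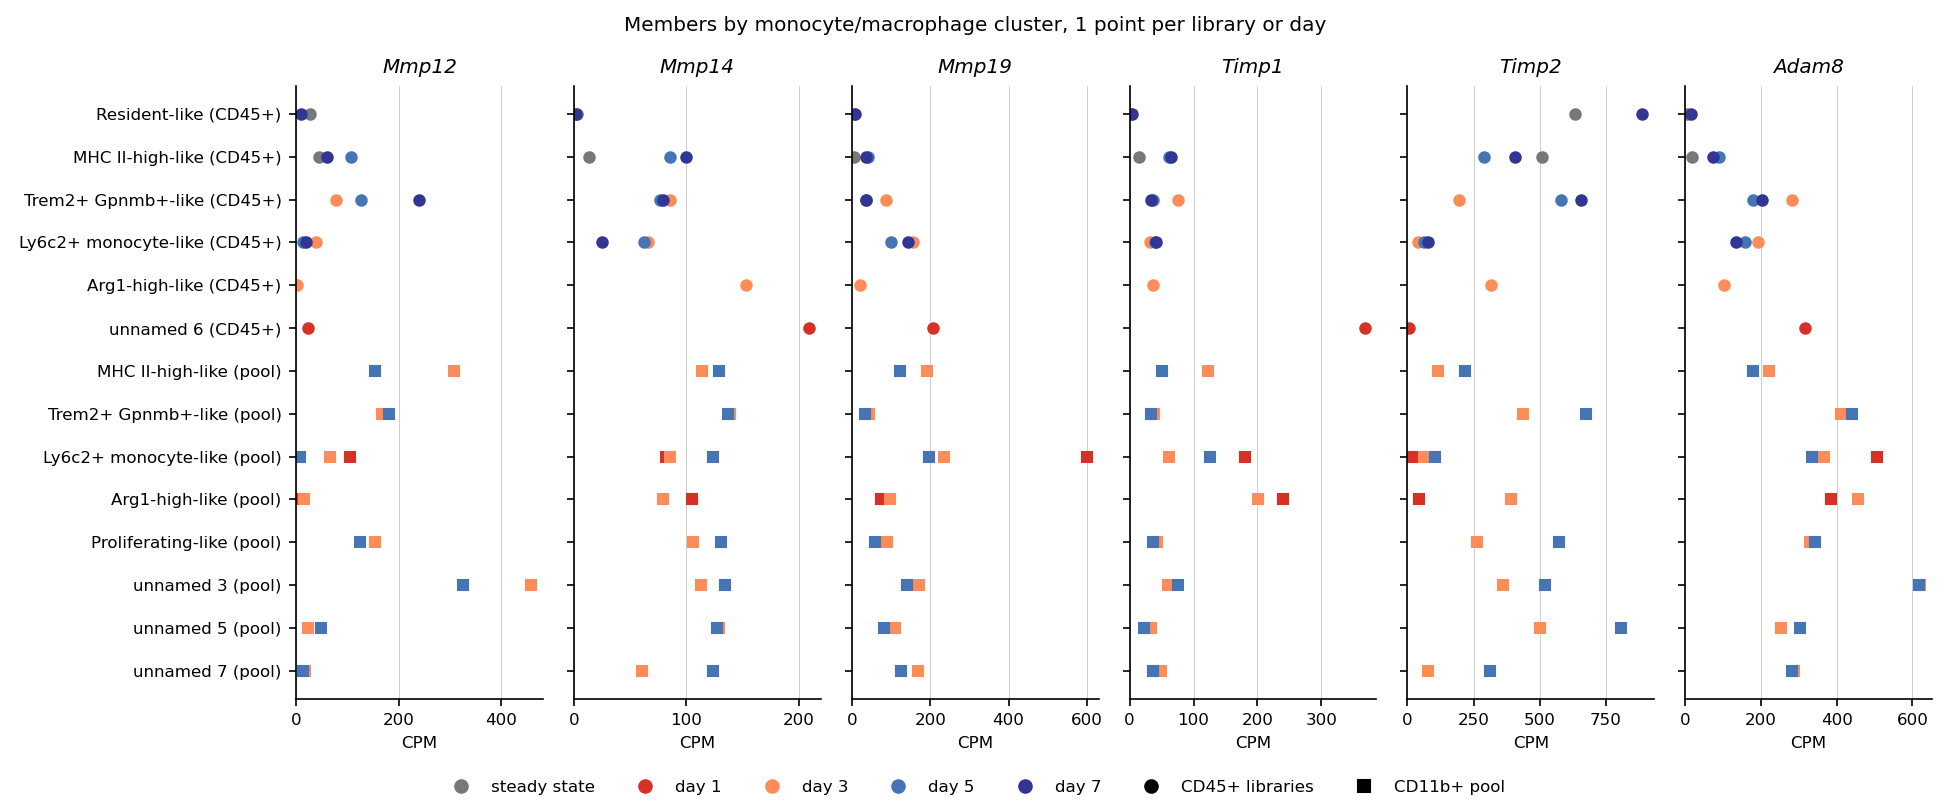
Level (CPM, linear axis from 0) of Mmp12, Mmp14, Mmp19, Timp1, Timp2 and Adam8 by monocyte or macrophage cluster (the Interferon-high-like one is not drawn), with 1 point per day, circles for the CD45+ libraries and squares for the CD11b+ pool. Unnamed 6 is the cluster led by Cxcl3, Lcn2 and S100a8, unnamed 3 that led by Hbb-bs, Spp1 and Pf4, unnamed 5 that led by Selenop, Apoe and Gdf15 and unnamed 7 that led by S100a9, S100a8 and Acod1. Resident-like macrophages have 634 and 890 CPM of Timp2 and at most 14.3 CPM of Adam8.

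Genes of the wider pathway were taken from a list of 59 other proteinases, inhibitors, activators and partners, all found in the matrices. In monocytes and macrophages 24 could be tested, and between day 1 and day 5, 4 were higher and 5 lower, with a median of 0.12. Of all genes tested there, 4.72% were higher and 6.24% lower. Ctsk, the collagen-degrading cathepsin K, rose from 1.29 to 22.6 CPM in the CD45+ libraries and from 3.89 to 147 CPM in the pool (4.74, SE 0.38, edgeR adjusted p = 0.00574). Cd63, a tetraspanin that binds Timp1, rose from 295 to 1844 CPM and from 316 to 1280 CPM (2.09, SE 0.25, edgeR adjusted p = 0.0112). Of days 1, 3 and 5, day 5 had the highest sum of both genes in each experiment, as it had of Timp2. Plaur, the urokinase receptor, fell from 1934 to 498 CPM and from 727 to 206 CPM (-2.15, SE 0.16, edgeR adjusted p = 0.00548), and Mmp8, the neutrophil collagenase, from 268 to 25.4 CPM and from 47.6 to 18.7 CPM (-2.72, SE 0.54, edgeR adjusted p = 0.0342). The neutrophil marker sum was also lower on day 5 than on day 1, at 443 against 19001 CPM and 638 against 2299 CPM, and its part in the Mmp8 result was not tested. Between days 1 and 3, 0 of the 24 passed edgeR's test, although DESeq2 called 4, all lower, and 8 had an unadjusted p under 0.05. From day 3 to day 5 edgeR also called 0, with 6 at an unadjusted p under 0.05, while DESeq2 called 2, both higher.

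In neutrophils 21 genes of the list could be tested, with 0 higher and 4 lower on day 3 and 0 higher and 5 lower on day 5. Of all genes tested, 0.778% were higher and 2.48% lower on day 3, and 2.46% higher and 6.07% lower on day 5. Adam19, a membrane proteinase, was at 25.4, 4.73 and 0 CPM on days 1, 3 and 5 of the CD45+ libraries and at 82.7, 7.30 and 6.69 CPM in the pool (day 5 log2 difference -4.40, edgeR adjusted p = 6.67e-04). Mmp8 was at 1044, 327 and 28.1 CPM and at 158, 38.7 and 46.8 CPM (day 5 difference -3.66, edgeR adjusted p = 0.00106). Day 1 held the highest level of both genes in each experiment, as it did for Mmp19 and Adam8. In the surface splits 25 genes of the list could be tested. In Ly6C-high cells 2 were higher and 2 lower, where 5.27% of all genes tested were higher and 4.56% lower. In Ly6G-positive cells 9 were higher and 6 lower, where 16.7% of all genes tested were higher and 13.9% lower. Between I-A/I-E tertiles edgeR called 0 of the 25, where it called 0.366% of all genes tested. DESeq2 called 2 of the 25 there, and 7 had an unadjusted edgeR p under 0.05.

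Across 31 state sums, the 2 genes of 2455 whose log2(CPM + 1) followed each member most closely were taken by Pearson's r, as a description of sums that share libraries and cells. Timp2 was followed most closely by Serpinb6a (r = 0.94) and Camk1 (r = 0.93), Mmp19 by Csf2rb (0.90) and Chd7 (0.89), and Timp1 by Arg1 (0.87) and Thbs1 (0.82). Adam8 was followed by Fam129b (0.94) and Pdpn (0.92), Mmp14 by Il7r (0.78) and Gde1 (0.78) and Mmp13 by Saraf (0.73) and Fcgr2b (0.70). No gene came as close to Mmp12 (Hpf1, 0.68, and Oxct1, 0.66) or Timp3 (Raly, 0.63, and Hmgb1, 0.62).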

How the data were processed

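The authors deposited filtered UMI count matrices per gene and cell from 7 10x libraries, aligned with Cell Ranger to mm10 (GRCm38) per the submitters' processing notes (version 3.0.2 per the file headers of the pools). Per the labels' protocols, the CD45+ libraries used the 3′ kit v2 and the CD11b+ pool v3. The antibody counts were deposited in the same matrices. The 8 members and all gene lists were chosen with earlier results of these data known.

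Barcodes needed 200 genes or more and no more than 10% mitochondrial UMIs (medians of 3594 to 9463.5 UMIs a cell in the CD45+ libraries, 6827 to 24775 in the CD11b+ pool). In that pool, cells with several hashtags (5.98%) or none (5.85%) were dropped. Scrublet marked 18 of 4763 CD45+ cells (0.378%), too few to have worked there, so heterotypic doublets may remain. Clusters came from scanpy 1.11.5 (2000 variable genes, 30 components, 15 neighbours, Leiden resolution 0.5), without member or pathway genes.

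Counts were summed per class, day and experiment (at least 30 cells) and tested with edgeR 4.0.16 (TMM, glmQLFit and glmQLFTest, two-sided, Benjamini-Hochberg adjustment over all genes tested, threshold 0.05), with day and experiment as terms. Tertile and Ly6G splits had day as a term. Libraries without a second experiment (steady state, day 7) have ratios with exact intervals and no test. The fits were tested on simulated counts without a difference between experiments, in which 200 genes changed by 2 on the log2 scale. In monocytes and macrophages 70.0% of them were recovered for day 3 and 76.0% for day 5. In neutrophils the shares were 60.0% and 42.5%. False calls were 1.16% to 5.00% of all calls. Real differences between the experiments were not part of that trial. Alternatives were DESeq2 1.42.0, total-count scaling, no filter on low counts, no replicate block, a 20% mitochondrial limit, resolution 1.0, Ly6G classing and leaving out each sum. The naming rule covered all 8 members, of the pathway list at most the 3 highest and 3 lowest called changes with a mean of at least 10 CPM, and the 2 genes most like each member by Pearson's r among those with a mean of at least 50 CPM (without mitochondrial, ribosomal, haemoglobin, Gm and Rik genes). A state name needed 3 or more of its markers. A total of 0 columns of other samples were used.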

Additional observations from a re-analysis of the deposited data

Results flagged for a closer look

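The change of Timp2 between days differed between monocytes and macrophages on one side and neutrophils on the other, by a test of the difference itself. The excess in monocytes and macrophages was 3.46 on the log2 scale from day 1 to day 3 (edgeR adjusted p = 0.0145) and 5.13 from day 1 to day 5 (edgeR adjusted p = 5.95e-04), with both experiments in the same direction. The day 3 call was lost in 3 of the 6 fits that left out a sum (without CD45+ day 5, pool day 3 or pool day 5), and the day 5 call in 2 (without CD45+ day 5 or pool day 5). With 2 sums a day in each class, no group was large enough to be searched for a sample far from the others.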

How the results depend on the processing

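Each day has 2 sums, from experiments that differ in sort, kit and depth, and counts of calls over all genes moved widely between alternatives. Between days 1 and 3 in monocytes and macrophages, 4 genes were called, and 552 with DESeq2, 2 with total-count scaling and 623 with no filter; members called went from 0 to 5 with DESeq2 and to 5 with no filter. Between days 1 and 5, 1171 were called, and 1840 with no filter. Between days 3 and 5, 2 were called, and 100 with DESeq2, 0 with total counts, 81 with no filter, 0 with the 20% mitochondrial limit and 1 with Ly6G classing, with 2 members by DESeq2 and 1 with no filter.

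In neutrophils, 201 genes were called on day 3, and 132 with DESeq2, 453 with total counts, 326 with no filter, 131 with the 20% limit, 73 with Ly6G classing and 18 without the Tnf and Icam1 cluster, an alternative chosen after seeing the data. Members called were 2, and 1 with total counts, 0 with Ly6G classing and 1 without the cluster. On day 5, 527 genes were called, and 349 with DESeq2, 1205 with total counts and 13 without the cluster, with 1 member under Ly6G classing and 1 without the cluster. Under Ly6G classing Timp2 reversed on day 5, to 0.03. Between days 3 and 5, 0 were called, and 1 with DESeq2, 11 with no filter and 3 with Ly6G classing.

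The class difference called 2 genes on day 3 (175 with no filter; members 0 with total counts), 96 on day 5 (746 with total counts, 423 with no filter) and 0 between days 3 and 5 (18 with no filter). Total counts moved the share of higher calls from 43.0% to 64.4% in monocytes and macrophages between days 1 and 5 (median shift 0.25), from 49.0% to 3.35% for the day 5 class difference (shift -0.73), and from 54.5% to 39.3% for Ly6G (shift -0.21). Ly6C called 1067 genes (1986 with no filter), I-A/I-E 40 (125 with DESeq2, 224 with no filter) and Ly6G 3091. The cause of these moves was not tested.

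Without the replicate block (experiment as the shared term), 0 genes and 0 members were called in each day comparison of monocytes and macrophages and, for days 3 and 5 against day 1, of neutrophils. Timp2 between days 1 and 5 was then at 3.81 (edgeR adjusted p = 0.128) and Mmp19 at -2.30 (adjusted p = 0.128). Without the day block, 0 genes were called for Ly6C, 5 for I-A/I-E and 323 for Ly6G, and 0 members in each.

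Leaving out 1 sum at a time, with a lone sum assumed to vary like the others, monocytes and macrophages gave 11 to 2278 genes and 0 to 7 members on day 3, 226 to 3281 and 2 to 7 on day 5, and 0 to 646 and 0 to 2 between days 3 and 5. Neutrophils gave 54 to 706 and 0 to 3, 3 to 1048 and 0 to 3, and 0 to 33 and 0 to 0. The class difference gave 0 to 473 and 0 to 3, 0 to 922 and 0 to 3, and 0 to 60 and 0 to 1. Ly6C gave 245 to 1180 and 1 to 3, I-A/I-E 34 to 52 and 1 to 1, and Ly6G 1078 to 3408 and 3 to 4. Timp2 (3.59 to 4.33) and Mmp19 (-2.45 to -2.11) in monocytes and macrophages between days 1 and 5 were called in all 6. Mmp14 ranged from -1.70 to 0.27 on day 3 and from -1.64 to 0.35 on day 5, reversed without CD45+ day 1. In neutrophils on day 3, Mmp19 was lost without pool day 3 (adjusted p = 0.154), and Adam8 without CD45+ day 5 (0.0571), pool day 3 (0.430) or pool day 5 (0.0501). On day 5, Mmp19 was lost without CD45+ day 5 (0.0528) or pool day 5 (0.137), and Adam8 likewise (0.237 and 0.0663). The day 3 class difference of Timp2 was lost without CD45+ day 5 (0.0813), pool day 3 (0.282) or pool day 5.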

Other observations

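Members were also counted in other heart leukocytes and the few fibroblasts of the CD45+ libraries. Dendritic cells held 273 CPM of Mmp12 at steady state (22 cells) and 275 CPM on day 1 (25 cells), and 22.8, 8.18 and 23.7 CPM on days 3, 5 and 7. Their Timp1 was at 97.5, 207, 88.6, 73.6 and 64.7 CPM over the same libraries. In the fibroblast cluster Timp1 was at 0 in 25 steady-state cells and at 1272 CPM in 11 cells of day 3, whereas Timp3 was at 620 CPM and 60.6 CPM in the same cells. On days 5 and 7 (19 and 6 cells) Timp1 was at 178 and 404 CPM and Timp3 at 4.82 and 148 CPM. These sums are single libraries of few cells, and no test was made. The part of barcodes that mix cell types was not tested either.

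The blood and heart pool has 7 hashtags that could not be tied to a group, so its values are given per hashtag. Over their monocytes and macrophages, the lowest, median and highest levels were 0.219, 1.31 and 41.5 CPM for Mmp14, 0.159, 0.765 and 44.5 CPM for Timp1, 12.0 CPM (lowest) and 93.3 CPM (highest) for Mmp19, 8.76, 18.0 and 157 CPM for Adam8 and 27.1, 40.4 and 48.3 CPM for Timp2. Hashtags 6 and 7 stood apart from the other 5 for Mmp14 (36.0 and 41.5 CPM), Timp1 (44.5 and 31.5 CPM), Mmp19 (59.9 and 93.3 CPM), Adam8 (104 and 157 CPM) and Mmp12 (8.22 and 8.31 CPM, against a median of 0.198 CPM). In the neutrophils of the pool, the lowest, median and highest levels were 116, 246 and 282 CPM for Timp2, 179, 223 and 330 CPM for Adam8 and 0.285, 1.56 and 17.5 CPM for Mmp19. Timp3 was at 0 in every hashtag of both classes.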
